A study of Homo sapiens with 3 samples.

Results

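Olfactory receptor clusters are long stretches of chromosome filled with genes for odorant-binding G protein-coupled receptors, and they were examined here for summits of HA-tagged TFE3. A summit is the single base that the authors list as the top of a bound region. The clusters were taken as 6 hg19 intervals, given by position and not by the summits in them: bases 247600001 to 248800000 of chromosome 1, bases 4380001 to 6200000, 55000001 to 56500000 and 123600001 to 124450000 of chromosome 11, bases 20200001 to 20750000 of chromosome 14, and bases 9100001 to 9370000 of chromosome 19. They are called below by the cytogenetic band that holds most of each, 1q44, 11p15.4, 11q12.1, 11q24.2, 14q11.2 and 19p13.2. The 11q12.1 interval begins in 11q11, and the 11q24.2 interval begins in 11q24.1. Together they cover 6.19 Mb. Replicate 1 had 23 of its 62287 summits in them and replicate 2 had 26 of its 72647.

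The cells were HK-2, an established human kidney proximal tubule line, made to express TFE3 with an HA tag under doxycycline control. Both ChIP libraries and the input library share this line, a protocol of 24 h with or without 0.2 µg/ml doxycycline, and the anti-HA reagent named in their labels, and the labels do not say which libraries were treated. Whether the line is a single clone, and how much HA-TFE3 it makes beside its own TFE3, was not stated in the labels. The 2 ChIP libraries were compared with each other and the 1 input library entered no comparison. Nothing in the labels ties the libraries to separate cultures, and what separates them may therefore be technical variation only.

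TFE3 belongs to the MiT/TFE family of transcription factors, which bind as dimers and are known for occupying E-box sequences at lysosomal and autophagy genes. Olfactory receptor genes form the largest human gene family, and they are best known from olfactory sensory neurons, where a cell settles on a single receptor and the rest of the family is packed in heterochromatin. The clusters also hold many receptor pseudogenes and a few unrelated genes. Expression was not measured in this series, so whether any of these genes was active in the HK-2 cells is not known from these data.

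The sequence just upstream of olfactory receptor genes was poor in CACGTG, the core of the E-box that MiT/TFE factors are known to prefer. The RefSeq promoter table (GRCh38.p14, 250 bases before to 50 after each gene's start) had 326 promoters for 314 olfactory receptor symbols. The core CACGTG, searched on both strands of which it reads the same, was in 6 of them, or 1.84% (95% exact binomial interval 0.678 to 3.96). Of the 154 of them in the gene runs named below for the clusters, 3 held the core, or 1.95% (0.404 to 5.59). The core was in 7.26% of all 35116 promoters in the table and in 8.34% of the 22198 promoters of protein-coding genes. The longer palindrome TCACGTGA, which contains that core, was in 0 of the 326 olfactory receptor promoters, which allows a share of up to 1.13%. It was in 0.980% of all promoters and in 1.28% of those of protein-coding genes (1.13 to 1.43). For this longer form a lower share was thus not shown against all promoters, and the protein-coding share lay only just above the limit. The related CATGTG, searched on both strands, was in 15.3% of olfactory receptor promoters (11.6 to 19.7) and in 11.1% of all promoters. Olfactory receptor promoters had a median GC content of 37.7%, against 58.7% over all promoters, and a median of 1 CG dinucleotide, against 14. The CACGTG core itself contains CG, and its share was not compared at equal base composition.

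Of the 6 promoters with the core, 3 belong to runs of olfactory receptor genes at the bands of the clusters: OR2T10 at 1q44, OR6T1 at 11q24.2 and OR7G2 at 19p13.2. Each run was taken between chosen neighbouring genes in the RefSeq order. The runs were not matched to the hg19 intervals, so the genes of a run and of its interval need not be the same. They were chosen for printing after the search, because none held the longer palindrome. Each window of 60 bases is read 5′ to 3′ along the gene's strand, with the core in capitals. OR2T10 is at chr1:248597689-248597748, OR6T1 at chr11:123943956-123944015 and OR7G2 at chr19:9107584-9107643, all on the minus strand of GRCh38.p14 and not on the build of the summits.
OR2T10: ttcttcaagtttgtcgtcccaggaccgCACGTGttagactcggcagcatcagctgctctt
OR6T1: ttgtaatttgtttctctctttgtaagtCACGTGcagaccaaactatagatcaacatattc
OR7G2: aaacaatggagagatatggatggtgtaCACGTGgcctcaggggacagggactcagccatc
The core of OR2T10 begins 21 bases before the gene's start, that of OR7G2 141 bases before and that of OR6T1 150 bases before. A match is a run of letters and not a measured site. No sequence of hg19 was used here, so no summit was set against these windows.

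HA-TFE3 summits were sparse in the olfactory receptor clusters. Replicate 1 had 3.72 summits per Mb in the 6 clusters (95% Poisson interval 2.36 to 5.58), where 20.5 per Mb was its average over chromosomes 1 to 22 and X. Replicate 2 had 4.2 per Mb (2.74 to 6.15), where its average was 23.9. Relative to each library's own average, the density in the clusters was 0.178 ± 0.0039 (SD, n = 2). This SD is between the libraries and says nothing of how density varies from region to region.

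Taken over the 6 clusters, the surrounding chromosome was richer in summits. The flanks, taken as 1 Mb on each side of every cluster, held 336 summits in replicate 1 and 364 in replicate 2 over 11.45 Mb. Their density, relative to each library's average, was 1.38 ± 0.072 (SD, n = 2), so they were denser than the genome as a whole. The density in the clusters was 0.127 of that in the flanks in replicate 1 (95% interval of the ratio 0.0792 to 0.193) and 0.132 in replicate 2 (0.0852 to 0.197). Turned round, the flanks were 7.90-fold and 7.57-fold denser. These pooled values do not weight the flanks as they weight the clusters. The 19p13.2 flanks gave 101 of the 336 and 111 of the 364 flank summits, while its cluster is 0.27 of the 6.19 Mb. Without 19p13.2 the ratios of clusters to flanks were 0.116 and 0.114. All 6 clusters were less dense than their own flanks in both lists (two-sided exact sign test over the 6 clusters, p = 0.031 in each list, the smallest p that 6 clusters allow). After Benjamini-Hochberg adjustment over the 5 sign tests made, these p-values were 0.0521 and no longer passed 0.05. These intervals take in counting error alone, though summits close together need not be independent. With flanks of 0.5 Mb the exact sign test gave p = 0.0625 in replicate 1 and p = 0.219 in replicate 2. With the lower-coordinate flanks alone it gave the same 2 values, and with any cluster left out it cannot go below 0.0625. The replicate 1 value was in both cases the smallest possible, because 11q12.1 was tied at 0 summits and dropped out.

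**Figure D1:**
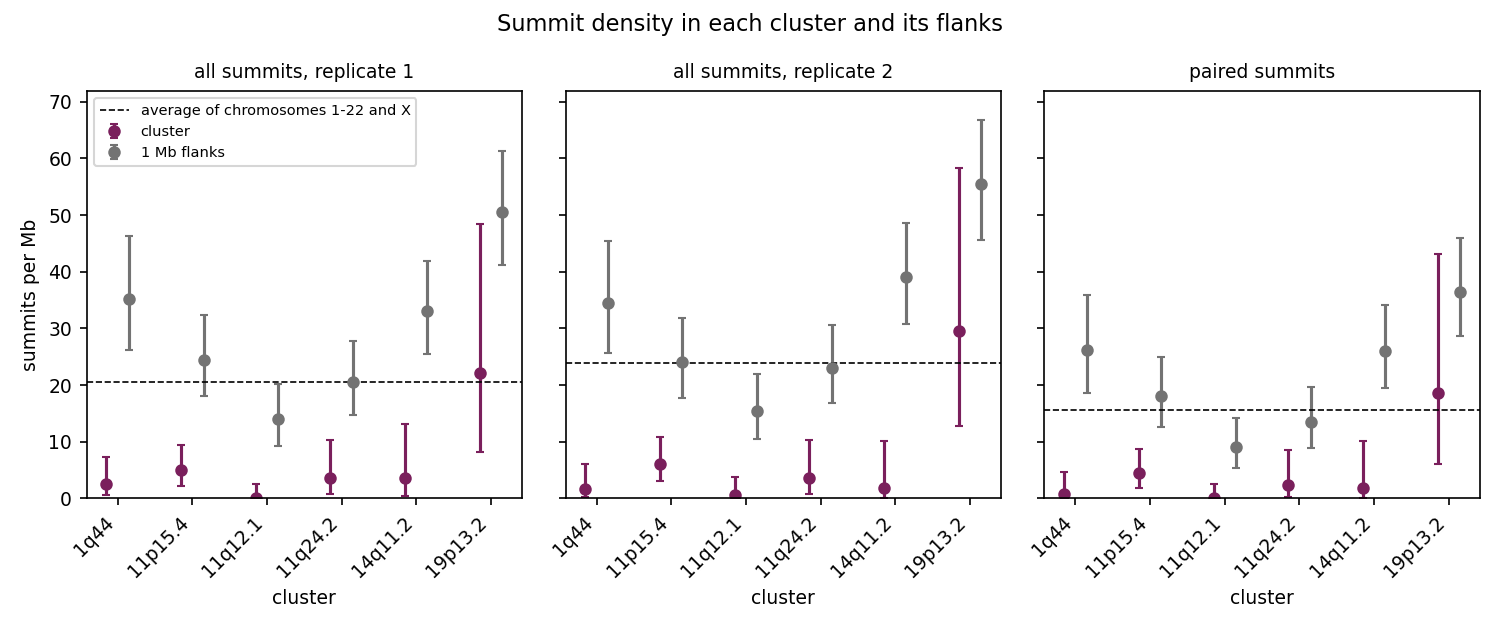
Summits per Mb in each cluster (purple) and in its 1 Mb flanks (grey), for all summits of replicate 1, all summits of replicate 2 and summits paired between the lists, with 95% Poisson intervals and a dashed line at the average of each list. Every purple point lies below the grey point beside it, and the 19p13.2 cluster alone reaches the dashed line.

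The libraries placed many of their summits in the clusters at the same sites. Summits of replicate 1 and replicate 2 that were mutually nearest and at most 100 bp apart were called a pair, and 17 pairs were found. They were 73.9% of the members in replicate 1 (95% exact interval 51.6 to 89.8), where 76.1% of all its summits were paired, and 65.4% of the members in replicate 2 (44.3 to 82.8), where 65.2% of all were paired. The members' shares were thus near those of the whole lists. In the flanks the shares were 72.6% and 67.0%, and the odds ratio of clusters against flanks was 1.07 in replicate 1 (0.387 to 3.41, two-sided Fisher's exact test p = 1) and 0.929 in replicate 2 (0.378 to 2.44, exact p = 0.833). These wide intervals leave room for a difference in either direction. The Fisher tests count each summit singly, though summits close together need not be independent, so the intervals may be too narrow. Both tests use the same pairs and are not independent of each other. Paired summits gave a similar ratio to all summits, with 2.75 per Mb in the clusters and 21.3 per Mb in the flanks, or 0.129 (0.0739 to 0.211). It was lower in 6 of 6 clusters (two-sided exact sign test, p = 0.031, adjusted 0.0521). Among the 10000 summits of highest score in each list, 1 pair was left in the clusters and 37 in the flanks, and the ratio was 0.05 (0.00123 to 0.296). The same filter gave 0.137 (0.0360 to 0.372) for replicate 1, with 4 summits left in the clusters, and 0.0638 (0.00755 to 0.241) for replicate 2, with 2, so these values do not show a stronger contrast among high scores.

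The clusters were unlike each other in how they were filled. Of the 17 pairs, 13 lay in 11p15.4 and 19p13.2, and the other 4 clusters together held 4 pairs over 4.1 Mb, or 0.976 per Mb (95% Poisson interval 0.266 to 2.498). All summits of those 4 clusters came to 8 in replicate 1 and 7 in replicate 2. The 100 kb windows inside the clusters gave the same picture: 49 of 60 held no pair, or 81.7% (69.6 to 90.5), where 49.3% of all windows of the genome and 38.2% of those in the flanks held none. Stretches as sparse as a single cluster were not rare. Among tiles of the cluster's own length, outside centromere, variable heterochromatin and stalk bands, as few pairs or fewer were held by 8.34% for 1q44, 19.3% for 11p15.4, 3.08% for 11q12.1, 19% for 11q24.2, 22.6% for 14q11.2 and 69.1% for 19p13.2. The 11q12.1 share sets a partly centromeric cluster against tiles without such bands. No window in the clusters held over 4 pairs, and the fullest flank window held 12.

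**Figure D2:**
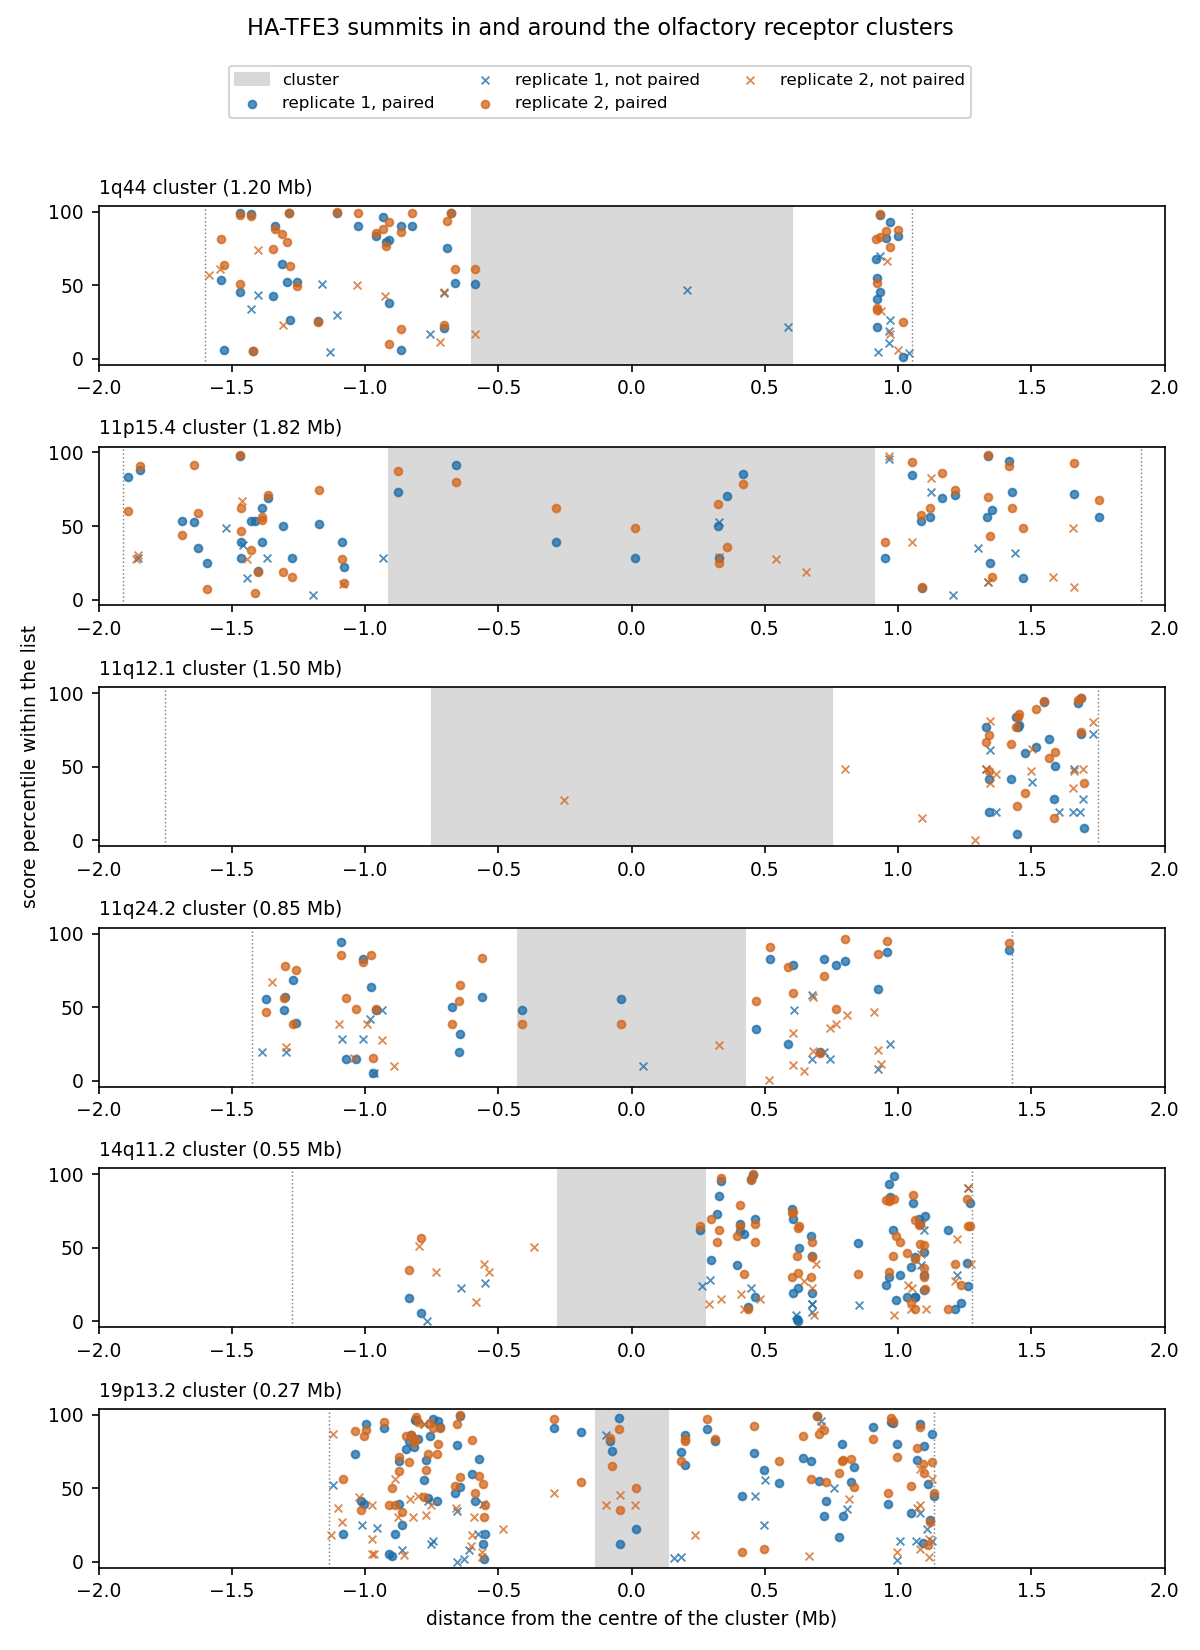
Score percentile of each summit within its own list against distance from the centre of the cluster in Mb, for the 6 clusters (shaded) and their flanks out to the dotted lines, with circles for paired and crosses for unpaired summits. The shaded areas of 1q44, 11q12.1 and 14q11.2 are almost empty up to their edges, while 11p15.4 has paired summits but none near its higher-coordinate end and the short 19p13.2 cluster is crowded.

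The 11q12.1 cluster, the emptiest, spans 1.5 Mb next to the centromere and held no pair. Replicate 1 had 0 summits there, with a 95% Poisson upper limit of 2.46 per Mb, and replicate 2 had 1, at base 55494387, with a score of 5.66 low in its list (percentile 27.4). The nearest summit of replicate 1 was 1584288 bp away. Its flanks had 28 and 31 summits, every one of them on the higher-coordinate side, and the 95% interval of their density over that of the cluster began at 5.33-fold in replicate 1 and 3.88-fold in replicate 2. The sparse stretch ran past the cluster on that side too. In the nearest 0.5 Mb replicate 1 had 0 summits and replicate 2 had 2, so with such flanks replicate 1 showed no difference, and its next summit came 579 kb beyond the edge. The lower-coordinate flank held no summit in either list. All 1 Mb of it lies in centromeric band 11q11, which also takes up 0.7 Mb of the cluster. How much of this band can be mapped was not measured. From base 55494388 to 56551152 no summit of either list was found, a stretch of 1057 kb. In the RefSeq order of genes (GRCh38.p14), 106 olfactory receptor genes and pseudogenes lie between TRIM48 and LRRC55, and the only other protein-coding gene among them is TRIM51, a tripartite motif family member.

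The 1q44 cluster, in 1.2 Mb, had 3 summits in replicate 1 and 2 in replicate 2, or 2.50 and 1.67 per Mb. Its flanks had 35.2 and 34.5 per Mb, 14.1-fold (4.55 to 70.4) and 20.7-fold (5.43 to 175.5) more. The only pair lay 11.8 kb inside the lower-coordinate edge, at bases 247611847 and 247611914, with scores of 8.65 and 11.1, near the middle of both lists (percentiles 51.2 and 61.1). Replicate 2 had a second summit 304 bp from the first library's, with a score of 4.52. Beyond that pair neither list had a summit for 795 kb. The unpaired summits of replicate 1 followed, at base 248406640 with a score of 8.24 and at base 248785976 with a score of 5, the latter 14 kb from the other edge. In the RefSeq order NLRP3, the sensor of an inflammasome, stands before a run of 56 olfactory receptor genes and pseudogenes in which GCSAML, TRIM58 and LYPD8 are the only other protein-coding genes. The higher-coordinate flank is 0.451 Mb long because the chromosome ends there.

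The 14q11.2 cluster had 2 summits in replicate 1 and 1 in replicate 2, all in its last 20 kb. They formed 1 pair at bases 20731038 and 20730988 with scores of 11.25 and 12.2, and an unpaired summit of replicate 1 at base 20737447 with a score of 5.59. The other 531 kb of the cluster, 96.5% of its length, held none. Its flanks differed greatly from each other. The lower-coordinate side had 5 and 8 summits per Mb, against 3.64 and 1.82 in the cluster, and the higher-coordinate side had 61 and 70. The low density thus went on beyond the cluster on the lower side, where the ratio of cluster to flank was 0.909 for pairs. In the RefSeq order 30 olfactory receptor genes and pseudogenes lie between POTEG and TTC5, with no other protein-coding gene.

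The 11q24.2 cluster had 3 summits in each list over 0.85 Mb, or 3.53 per Mb, against 20.5 and 23 per Mb in its flanks. Both pairs had low to middling scores. At bases 123612418 and 123612438, 12.4 kb from the lower edge, the scores were 8.50 and 6.95, and at bases 123986110 and 123986139, near the middle, they were 9.89 and 6.95. Between them lay 374 kb without a summit. The unpaired summits were at base 124065953 in replicate 1, with the lowest score of all members of that list, 3.84, and at base 124351799 in replicate 2, with 5.43. The RefSeq run between ZNF202, a zinc finger gene, and PANX3 holds 44 olfactory receptor genes and pseudogenes, with TMEM225 and VWA5A as the other protein-coding genes. VWA5A stands about the middle of the run, with olfactory receptor genes on both sides.

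The 11p15.4 cluster, the longest at 1.82 Mb, had 9 summits in replicate 1 and 11 in replicate 2, or 4.95 and 6.04 per Mb, against 24.5 and 24.0 in its flanks. Its 8 pairs were the most of any cluster. Of all pairs, 6 lay deeper than 400 kb from an edge, and 6 of 6 were in 11p15.4. The strongest pair was at bases 4629480 and 4629496, with scores of 26.4 and 17.9 (percentiles 91.4 and 79.8). Next came bases 5706339 and 5706345, with 20.8 and 17.2, and bases 4414972 and 4414982, with 14.4 and 23.7. Lower scores were found for the pair at bases 5613007 and 5612994, 8.55 and 12.2, and for that at bases 5005219 and 5005278, 7.12 and 11.1.

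The pair at bases 5646188 and 5646201 had scores of 13.5 and 6.71. At base 5301997 both libraries had their summit on the same base, with scores of 5.80 and 8.30. The pair at bases 5617937 and 5617893 had 5.80 and 5.43. Another 2 summits lay just past the limit for pairing, at base 5617454 in replicate 1 (score 8.83) and base 5617335 in replicate 2 (5.74), 119 bp apart. Replicate 2 alone had base 5829913 with a score of 5.66 and base 5944461 with 4.59. From base 5612994 to 5706345 the cluster held 5 summits of replicate 1 and 5 of replicate 2.

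The run of genes at 11p15.4 is also the least pure. In the RefSeq order from RRM1 to FHIP1B, 103 olfactory receptor genes and pseudogenes are interleaved with 21 other protein-coding genes. Among those are TRIM21, a cytosolic antibody receptor, TRIM68 and the metalloproteinase gene MMP26. Further along come the beta-like globin genes HBB, HBD, HBG1, HBG2 and HBE1, and after them a group of TRIM5, TRIM6, TRIM34 and TRIM22. TRIM5 is known as a restriction factor of retroviruses. The table gives the order of these genes and not their places on hg19, so no summit was assigned to any of them. Of the 17 such genes in a list chosen for the 6 clusters, 11 had a RefSeq promoter, and 0 of these held CACGTG. ZNF317 and HBD held CATGTG. Over all promoters the shares were 7.26% for CACGTG and 11.1% for CATGTG, and 11 genes are too few to show a difference from these.

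The 19p13.2 cluster, the shortest at 0.27 Mb, stood apart. It had 6 summits in replicate 1 and 8 in replicate 2, or 22.2 and 29.6 per Mb, which is 1.08 and 1.24 times the averages of the lists. Its flanks had 50.5 and 55.5 per Mb, and the ratio of cluster to flanks was 0.440 (95% interval 0.158 to 0.992) and 0.534 (0.225 to 1.09). For pairs it was 0.507 (0.160 to 1.24), and with flanks of 0.5 Mb it turned round to 1.09. The median tile of this length over the genome held 3 pairs and the cluster held 5. Its strongest pair was the strongest of all members, at bases 9186413 and 9186451 with scores of 41.9 and 27.1 (percentiles 98.0 and 90.7).

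The pair at bases 9154431 and 9154411 had scores of 18.6 and 20.9, and that at bases 9161061 and 9161034 had 15.5 and 12.2. The pair at bases 9250998 and 9251041 had 5.23 and 8.54, and that at bases 9189576 and 9189547 had 4.35 and 6.71. A further 2 summits, at base 9137152 in replicate 1 (score 21.6) and base 9137038 in replicate 2 (6.95), lay 114 bp apart and so just missed pairing, where the widest pair among the members was 67 bp. Replicate 2 also had unpaired summits at base 9190638 (8.19) and base 9247395 (6.95). The last 119 kb of the cluster were empty in both lists. In the RefSeq order 16 olfactory receptor genes and pseudogenes, OR7G2 among them, lie between MUC16 and ZNF699, with the zinc finger gene ZNF317 in their midst.

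Density was higher outside the cluster edges than inside, though not clearly so between the bins that meet at the edge. Pooled over the 6 clusters, paired summits came to 6.67 per Mb in the outermost 100 kb inside the edges (95% Poisson interval 2.88 to 13.1) and to 0.935 per Mb in the next 100 kb inward (0.0237 to 5.21). Of the 8 pairs in the outermost bin 4 belong to 19p13.2, and without that cluster the bin had 4 per Mb (1.09 to 10.2) and the next bin inward 0. Outside, the first 100 kb had 11.7 per Mb (6.38 to 19.6), and this interval overlaps that of the outermost bin inside. Without 19p13.2 its interval was 4.795 to 18.4, which again overlaps that inside. The rise outward was not steady, with 14 pairs in the first 100 kb and 12 from 200 to 300 kb. The fullest bin, from 500 to 600 kb, had 30.9 per Mb (21.4 to 43.2). Without 19p13.2 that bin had 23.3 (14.4 to 35.7). Of the 17 pairs, 8 lay within 100 kb of an edge and 3 within 20 kb. With 100 kb taken off each end, 9 pairs remained in 4.99 Mb, or 1.80 per Mb (0.825 to 3.42), and 7 of those were in 11p15.4. The edges of the intervals are round numbers and were not set at the outermost receptor genes.

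**Figure D3:**
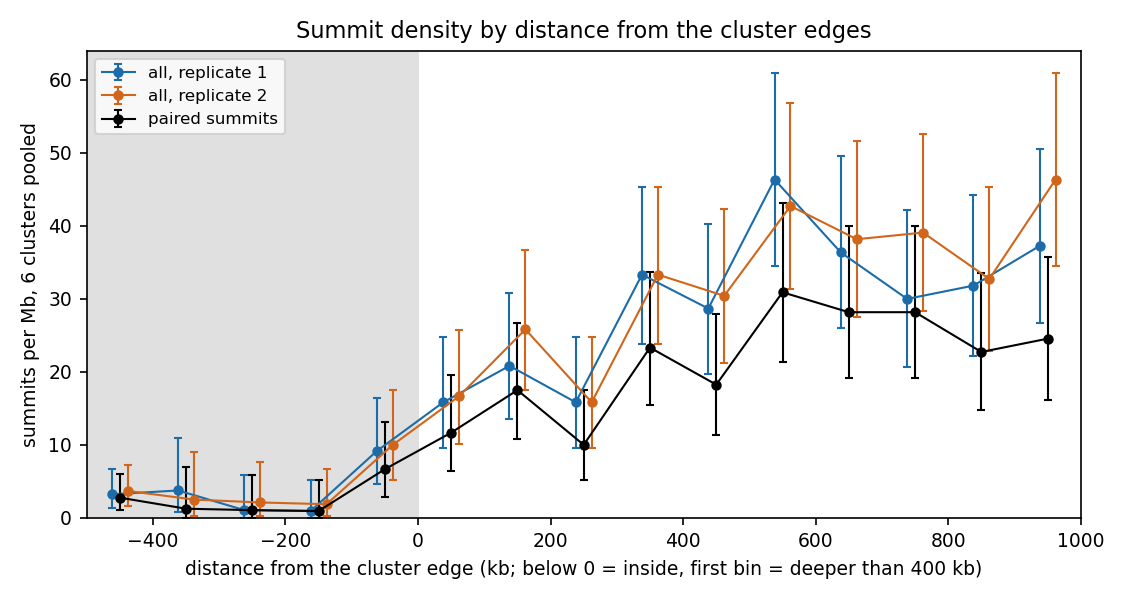
Summits per Mb, pooled over the 6 clusters, against distance from the nearer cluster edge in kb, with the inside shaded and 95% Poisson intervals. Paired summits stay at or below 2.77 per Mb deeper than 100 kb inside. Outside they dip between 200 and 300 kb and are highest, at 30.9 per Mb, between 500 and 600 kb.

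In 3 of the 5 stain classes that the clusters touch, bands outside them were denser in pairs than the clusters' interval allows, and in the other 2 no difference was shown. The parts of the clusters in unstained bands held 3 pairs in 2.3 Mb, or 1.3 per Mb (0.269 to 3.81), and unstained bands elsewhere had 21.2 (20.9 to 21.5). In bands of 50% stain the clusters had 4.25 pairs per Mb (1.94 to 8.06), against 15.2 elsewhere (14.9 to 15.6). In bands of 75% stain they had 0 in 0.8 Mb, with an upper limit of 4.61 per Mb, where 11 per Mb were found elsewhere. In the 25% stain band that holds 19p13.2 the cluster had 18.5 per Mb (6.01 to 43.2), and such bands elsewhere had 25.9, within that interval. In centromeric bands the clusters had 0 in 0.7 Mb, with an upper limit of 5.27 per Mb, where 1.77 per Mb were found elsewhere.

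Scores of the members were not clearly set apart from those of the flanks. The score is the authors' own value for each summit, on a scale that nothing used here states, and is read only as a percentile rank in its list. In replicate 1 the median percentile was 51.2 in the clusters and 48.4 in the flanks, and in replicate 2 it was 42.3 and 54.1. The differences, 2.84 and -11.8 points, had opposite signs. Per cluster, the median was lower than in the flanks in 1 of the 4 clusters that differed in replicate 1 (two-sided exact sign test, p = 0.625, with 0.125 as the smallest p possible) and in 5 of 6 in replicate 2 (exact p = 0.219). In replicate 1 the 19p13.2 cluster had the highest median percentile, 79.0 against 52.5 in its flanks. In replicate 2 it had 48.1 against 56.1.

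The members' share of high ranks was not distinguishable from that of the whole lists. The top decile of each list held 2 of 23 members in replicate 1 (8.70%, exact interval 1.07 to 28.0) and 1 of 26 in replicate 2 (3.85%, 0.0973 to 19.6), where it held 9.94% and 9.99% of all summits and 12.8% and 12.6% of those in the flanks. Of the unpaired members, 4 of 6 in replicate 1 and 9 of 9 in replicate 2 were below the median of their list, as were 80.6% and 81.3% of all unpaired summits. Of the unpaired members, 2 of 6 in replicate 1 and 3 of 9 in replicate 2 had a summit of the other list within 500 bp. The same share was not counted over all unpaired summits or those of the flanks, so these counts are not shown to be particular to the clusters.

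Distances within pairs, which the rule holds to at most 100 bp, were near those elsewhere. The median distance was 27 bp over the 17 pairs in the clusters, 22 bp over the 244 in the flanks and 26 bp over all 47396. Scores of the pairs rose together, with a Spearman correlation of 0.758 and a Pearson r of log2 scores of 0.790 across the 17 pairs, against 0.743 and 0.758 in the flanks. These are correlations across summits of the same libraries, which are not independent, so they carry no p-value. The higher score was that of replicate 1 in 8 of 17 pairs, against 88 of 244 in the flanks and 19919 of all 47396. With 17 pairs this is not shown to differ.

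**Figure D4:**
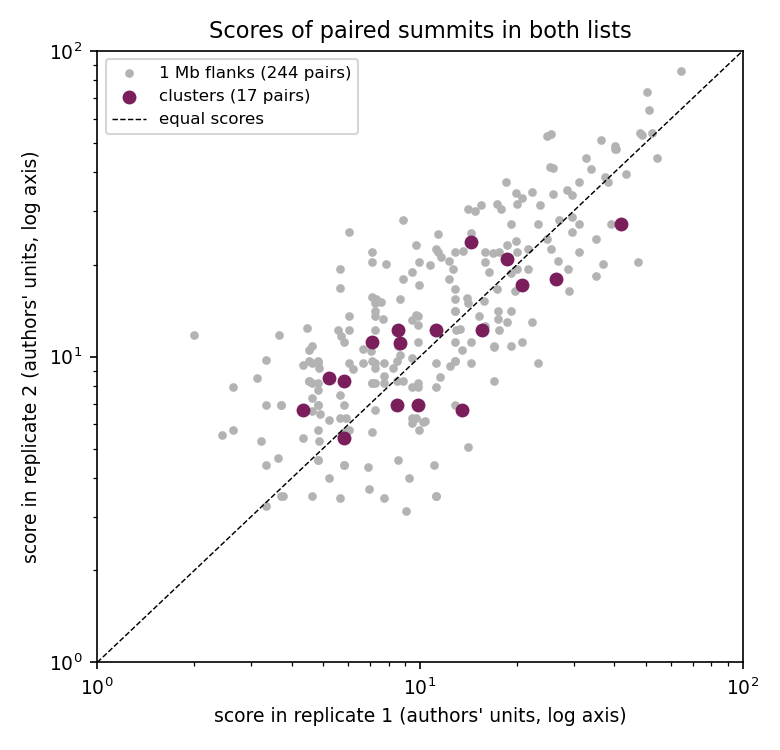
Score of each paired summit in replicate 2 against that in replicate 1, in the authors' units on log axes, for 17 pairs in the clusters (purple) and 244 in the flanks (grey), with a dashed line of equal scores. The purple points lie within the grey cloud, and none of them has a score above 41.9 in replicate 1 or 27.1 in replicate 2.

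The lower density also shows as wider spacing, which is the same observation on another scale. The median spacing was 60.8 kb in replicate 1 and 42.5 kb in replicate 2, against 11.4 and 9.89 kb in the flanks. Spacings of at most 1 kb numbered 1 of 18 in replicate 1 and 2 of 20 in replicate 2, and made up 14.2% and 13.3% of those in the flanks. Sequencing depth is unknown, since the lists give no read counts, and how much of each cluster can be mapped uniquely was not measured, so a stretch without a summit is not shown to lack binding. The background of the precipitation was not measured either, and its part in the listed summits was not tested.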

How the data were processed

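ChIP-seq summits of HA-TFE3 from 2 replicate libraries were analysed, and the input library entered no comparison. The authors deposited, per library, a list of 1 bp summits with a name and a score, and the scale of that score is not stated. The build is hg19 per the submitters' processing notes, and positions are given 1-based. For the aligner, peak caller, threshold and use of the input: not given in the sources used here. Depth is unknown.

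Only chromosomes 1 to 22 and X entered, and 35 and 45 summits elsewhere did not. Pairs were mutual nearest summits within 100 bp. Flanks were 1 Mb on each side, cut at chromosome ends. Intervals are 95% exact Poisson, exact (Clopper-Pearson) binomial or, for density ratios, from the exact binomial split of counts. Where a count of 0 is given a limit, it is the upper end of the exact interval. Clusters were compared with their flanks by two-sided exact sign tests over clusters and Fisher's exact tests. Bands came from circlize 0.4.16 (R 4.3.3). Promoters and gene order came from RefSeq tables of GRCh38.p14, which gave no hg19 positions.

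The clusters, lists and tests were chosen with earlier results of these data known. The rule for named summits took the strongest pair of each cluster, up to 20 pairs and the 5 strongest unpaired summits of each list. As only 17 pairs were found, all pairs were named. All unpaired members, 6 in replicate 1 and 9 in replicate 2, were given too, which goes past that rule. The steps were tested on simulated lists. Python 3.11.15, NumPy 2.4.6, pandas 2.3.3, SciPy 1.17.1 and matplotlib 3.10.9 were used. Alternatives covered the pairing limit, score filters, flank size and side, centromeric bands, merging within 1 kb, and leaving out a cluster or a library. Leaving out a cluster from the edge densities was added after seeing the data.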

Additional observations from a re-analysis of the deposited data

How the results depend on the processing

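The pooled density ratio of clusters to flanks stayed below 1 under every alternative run, but the sign test over clusters did not always pass. With flanks of 0.5 Mb the ratio was 0.170 for pairs, 0.163 for replicate 1 and 0.172 for replicate 2, and with the lower-coordinate flanks alone it was 0.157, 0.156 and 0.1605. The sign test missed its threshold in these 6 cases, with 4 of 5, 5 of 5 and 5 of 6 untied clusters lower at 0.5 Mb, where the ratio for pairs turned to 1.09 in 19p13.2, and 5 of 5, 5 of 5 and 5 of 6 on the lower side. Where 11q12.1 was tied at 0, the 5 clusters left could not give an exact p below 0.0625, so a miss was fixed in advance. Leaving out a cluster made a pass impossible, since 5 clusters allow no exact p below 0.0625, and the ratio then ran from 0.0936 to 0.156 for pairs, from 0.1055 to 0.1505 for replicate 1 and from 0.103 to 0.153 for replicate 2. Relative to the genome average, the density of pairs (0.176) was 0.196, 0.186 and 0.183 at pairing limits of 50, 200 and 500 bp, 0.165 above the median scores, 0.0731 with 10000 summits of highest score kept per list, and 0.193 after merging within 1 kb. It ran from 0.130 to 0.232 with a cluster left out and from 0.176 to 0.181 with a library left out. The difference in score percentile of replicate 1 turned to -2.44 above the median and -5.04 among the 10000. Odds ratios of pairing, never past the threshold, turned to 0.514 and 0.159 under the same filters in replicate 1, and to 0.685 and 0.899 without 11p15.4 and 19p13.2 (range with a cluster left out 0.685 to 1.53). In replicate 2 they turned to 1.14 at 50 bp, 1.03 at 200 bp, 1.49 above the median, 1.02 with 2 Mb flanks, and 1.05 and 1.01 without 1q44 and 11q12.1 (range 0.780 to 1.05). The cause of these turns was not tested. Low counts, 17 pairs in all, limit each cluster's ratio. The ChIP libraries form a single group, so no libraries could be paired across groups. The sign tests do pair each cluster with its own flanks.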
